A study of Mus musculus with 12 samples.

Results

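The response of cells to low oxygen and the glycolytic pathway it drives were followed through 36 named genes in the small intestine of mice after transplantation, of which 31 were measured. The genes were chosen by name from a list that was drawn up with their differences between the 2 treatment groups already known. The TUDCA minus vehicle values of these genes are therefore a description of them, and neither their direction nor their number past the threshold is evidence about the pathway. A gene counted as measured when a probe set of the array named it and no other gene. The 31 genes lay on 32 of the 23991 probe sets, with a pair of probe sets for Hif1a. The probe sets of Aldoa and Ankrd37 name a further gene as well, and no probe set was found under the symbols Eno1, Gpi1 and Bnip3l, so these 5 genes were not analysed here.

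All 12 recipients were wild-type BALB/c mice that had been irradiated over the whole body and had received bone marrow and T cells of C57BL/6N donors, a transfer across strains that models acute graft-versus-host disease. One group of 6 had been given tauroursodeoxycholic acid (TUDCA), a taurine-conjugated bile acid, at 200 mg/kg daily into the peritoneum, and the other 6 the same volume of 200 µl of vehicle. Small intestine was taken on day 14 and its RNA hybridised to Affymetrix mouse gene arrays, 1 array per sample. No untransplanted mice were analysed here, so every value is a contrast between transplanted groups. The sample numbers of the labels form a low and a separate high range. The low range holds 2 TUDCA and 4 vehicle arrays, the high range 4 TUDCA and 2 vehicle arrays. What the ranges stand for is not given, and each difference was estimated within them. The labels number the replicates without identifying the mice, so p-values measure the spread between these samples.

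The arrays were alike in scale. Correlations between arrays across probe sets lay from 0.984 to 0.993, and array medians from 5.90 to 5.95 on the log2 scale. The description field names CXCL12-abundant reticular cells, while the source, tissue and treatment fields name small intestine. The intestinal genes Anpep, Apob and Muc2 had mean log2 values of 13.46, 12.73 and 12.95, and the reticular cell genes Cxcl12 and Lepr 7.71 and 6.54. Values of different probe sets are not on a shared scale, so they show only that intestinal RNA was present. Over all probe sets, 241 (1.00%) were higher with TUDCA and 364 (1.52%) lower at an adjusted p of 0.05 (limma, Benjamini-Hochberg over all probe sets).

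Cells sense oxygen through hypoxia-inducible factors (HIFs), transcription factors whose alpha subunits are hydroxylated by prolyl hydroxylases when oxygen is present and are then degraded. In low oxygen the alpha subunit persists, pairs with its partner Arnt and binds short DNA motifs near its target genes. The targets raise glucose uptake and glycolysis, turn pyruvate into lactate, and act on vessels, mitochondria and growth. The intestinal epithelium lies along a steep natural oxygen gradient, and HIF signalling there is known for its part in barrier function. HIF protein, oxygen and metabolites were not measured in these samples, and many of the same genes also answer to other inputs.

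Of the 31 measured genes, 10 (32.3%) were higher with TUDCA at an adjusted p of 0.05, where the share of all probe sets was 1.00%. They were the glucose transporter Slc2a1, the prolyl hydroxylase Egln3, the lactate exporter Slc16a3, the glycolytic enzymes Pfkl, Pgk1 and Tpi1, lactate dehydrogenase Ldha, the kinase Pdk1, the oxygen-regulated subunit Hif1a and the oxidase Ero1l. None was lower with TUDCA, beside 1.52% of all probe sets. At an unadjusted p under 0.05 (limma), 3 genes (Pfkfb4, Vegfa and Mxi1) had negative differences and 17 had positive ones. The shares of all probe sets are for the adjusted p, so they are no measure for these unadjusted counts. The median difference of the 31 genes was 0.25 log2 units, beside 0.01 over all probe sets. Differences were positive for 25 genes and negative for 6, while 53.3% of all probe sets were positive. As the list was selected on these differences, nothing is read from these shares. In whole tissue, a change in the number of cells of a type and in RNA per cell cannot be told apart.

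**Figure D1:**
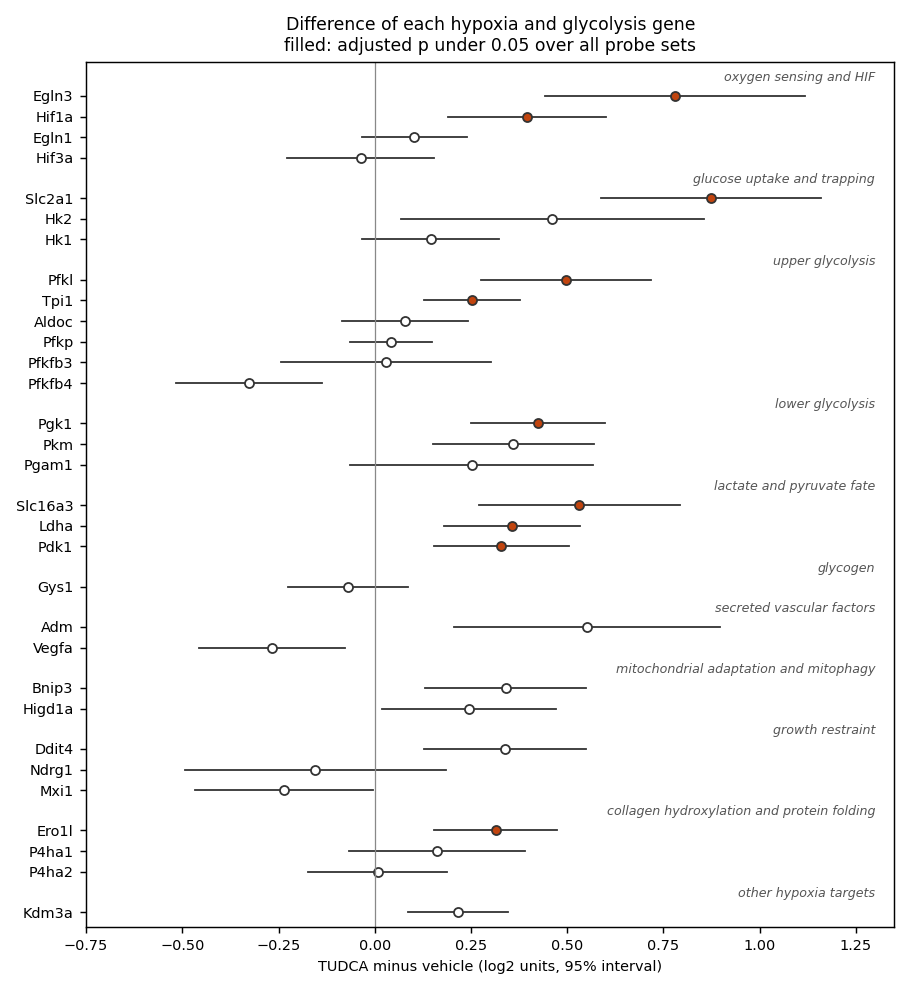
The TUDCA minus vehicle difference of each measured gene in log2 units, with its 95% interval from the fit with number range, grouped by role. Filled points mark the 10 genes with an adjusted p under 0.05, from Tpi1 at 0.25 to Slc2a1 at 0.87, and the lowest point is Pfkfb4 at −0.33.

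Since the genes named here share a known regulator, the DNA next to their start sites is shown for 6 of them. Windows from 250 bases before to 50 bases after the annotated start were taken from RefSeq (GRCm38.p6), and were found for 30 of the 31 genes, Ndrg1 being the exception. The letters searched were ACGTG and GCGTG, the common cores of the HIF binding motif, on both strands. ACGTG and its reverse complement CACGT can overlap, so that CACGTG counts as a match on each strand. Slc2a1, Pgk1, Ldha and Slc16a3 stand for genes that were higher with TUDCA, and Pfkfb4 and Vegfa had the most negative differences of the list. The 150 bases before the start are printed 5′ to 3′ on the strand of the gene, with matches in capitals.
Slc2a1: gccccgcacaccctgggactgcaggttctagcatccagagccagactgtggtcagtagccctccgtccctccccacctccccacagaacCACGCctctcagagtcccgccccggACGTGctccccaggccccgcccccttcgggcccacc
Pgk1: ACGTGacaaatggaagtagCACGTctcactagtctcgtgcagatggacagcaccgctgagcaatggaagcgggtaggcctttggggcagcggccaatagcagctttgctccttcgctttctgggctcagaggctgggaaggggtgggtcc
Ldha: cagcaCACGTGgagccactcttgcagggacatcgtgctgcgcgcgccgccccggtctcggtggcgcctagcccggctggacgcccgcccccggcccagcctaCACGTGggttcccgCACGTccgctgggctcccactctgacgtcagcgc
Slc16a3: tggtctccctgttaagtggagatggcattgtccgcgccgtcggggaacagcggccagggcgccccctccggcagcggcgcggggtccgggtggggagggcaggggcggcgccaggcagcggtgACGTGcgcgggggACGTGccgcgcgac
Pfkfb4: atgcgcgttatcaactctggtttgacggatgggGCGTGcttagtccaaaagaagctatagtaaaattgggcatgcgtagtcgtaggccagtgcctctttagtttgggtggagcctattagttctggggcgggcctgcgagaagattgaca
Vegfa: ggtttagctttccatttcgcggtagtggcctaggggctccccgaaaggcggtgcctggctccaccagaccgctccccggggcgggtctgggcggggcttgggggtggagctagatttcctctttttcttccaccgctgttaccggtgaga

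The printed stretches are chr4:119108595-119108744 (plus strand) for Slc2a1, chrX:106186950-106187099 (plus) for Pgk1, chr7:46845654-46845803 (plus) for Ldha, chr11:120948917-120949066 (plus) for Slc16a3, chr9:108991752-108991901 (plus) for Pfkfb4 and chr17:46032378-46032527 (minus) for Vegfa. Slc2a1 carries a CACGC 61 bases and an ACGTG 36 bases before its start. Slc16a3 holds ACGTG at 27 and again at 14 bases before the start, and Pgk1 holds ACGTG at 150 and CACGT at 131. Ldha has the most matches of the list, 7 in its window of 300 bases, or 5 when each overlapping pair is counted once, and a CACGTG palindrome begins 145 and again 48 bases before its start. Pfkfb4, which did not pass the test, has 1 match (GCGTG, 117 bases before the start), and Vegfa has none in this window. Matches did not simply follow the differences. Pfkp and P4ha2, with differences of 0.04 and 0.01, hold 4 matches each in their windows of 300 bases. Egln3 and Pfkl, which passed the test, hold 1 each. A link between matches and differences was not tested.

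Of the 30 genes with a window, 24 (80%) held a match, and so did 9 of the 10 genes that were higher with TUDCA, the exception being Tpi1. The same letters were found in 8303 of 16563 windows (50.1%) of all genes that a probe set named alone, and in 43.8% of all 27025 genes with a window. The share for ACGTG alone was 17 of 30 (56.7%), against 21.2% of the genes that a probe set named alone. Hk1, Tpi1, Pkm, Gys1, Vegfa and Mxi1 had no match, which says only that these letters are not in these windows. For the 9 genes with several annotated starts the most upstream one was used. The list consists of genes known as hypoxia targets, so these shares describe the list and are no finding about factor binding, which was not measured.

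Of the 4 measured genes for oxygen sensing and the HIF subunits, Egln3 and Hif1a were higher with TUDCA. Egln3, a prolyl hydroxylase that marks HIF alpha subunits for degradation and is itself a HIF target, ran from 9.94 to 10.82 on the TUDCA arrays (median 10.29) and from 9.28 to 10.06 on the vehicle arrays (median 9.51). The groups met only at their edges, where vehicle 6 lay above TUDCA 3. The difference was 0.78 ± 0.16 log2 units (SE, n = 6 per group, 95% interval 0.44 to 1.12), or 1.72-fold, with an adjusted p of 0.0172.

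Hif1a, which encodes the oxygen-regulated subunit itself, ran from 8.92 to 9.27 with TUDCA (median 9.16) and from 8.29 to 8.90 with vehicle (median 8.70), without overlap. Its difference was 0.40 ± 0.10 log2 units (SE), 1.32-fold, with an adjusted p of 0.0421. A second Hif1a probe set, from 5.50 to 5.88 with TUDCA and from 4.78 to 5.59 with vehicle, gave 0.61 ± 0.13 and an adjusted p of 0.0240, so both pointed the same way. The other members of this group did not pass. Egln1, the main prolyl hydroxylase of most tissues, differed by 0.10 ± 0.06 (adjusted p 0.520), and Hif3a, an alpha subunit that can restrain the others, by −0.04 ± 0.09 (adjusted p 0.907).

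Glucose entry is represented by the transporter Slc2a1 and the hexokinases, which phosphorylate glucose and so keep it in the cell. Slc2a1 showed the largest difference of the 31 genes. It ran from 8.88 to 9.64 on the TUDCA arrays (median 9.16) and from 8.01 to 8.55 on the vehicle arrays (median 8.47). Every TUDCA array lay above every vehicle array, with the highest value on TUDCA 1 and the lowest on vehicle 2. The difference was 0.87 ± 0.13 log2 units (SE, 95% interval 0.59 to 1.16), or 1.83-fold, with an adjusted p of 0.00319. Among the hexokinases, Hk2, the inducible form, gave 0.46 ± 0.18 (adjusted p 0.261) and Hk1, the widely expressed form, 0.14 ± 0.08 (adjusted p 0.477). Hk2 was spread widely in both groups, from 8.27 to 9.20 with TUDCA and from 7.71 to 8.81 with vehicle, and TUDCA 6 and vehicle 5 held the high ends.

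In upper glycolysis, where glucose phosphate is converted to triose phosphates, 6 genes were measured and Pfkl and Tpi1 were higher with TUDCA. Pfkl, the liver-type subunit of phosphofructokinase, ran from 7.96 to 8.24 with TUDCA (median 8.08) and from 7.28 to 7.86 with vehicle (median 7.65). The groups did not overlap, and the difference was 0.50 ± 0.10 log2 units (SE), 1.41-fold, with an adjusted p of 0.0196. Pfkp, the platelet-type subunit of the same enzyme, differed by 0.04 ± 0.05, with a 95% interval from −0.06 to 0.15. Its interval lies below that of Pfkl, 0.28 to 0.72, although the difference between the subunits was not tested.

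Tpi1, triose phosphate isomerase, ran from 11.01 to 11.36 with TUDCA (median 11.22) and from 10.91 to 11.11 with vehicle (median 10.97), with vehicle 1 inside the TUDCA range. Its difference of 0.25 ± 0.06 log2 units (SE), 1.19-fold, was the smallest to pass, with an adjusted p of 0.0339. The aldolase Aldoc differed by 0.08 ± 0.08 (adjusted p 0.717).

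Pfkfb3 and Pfkfb4 make and remove fructose 2,6-bisphosphate, the allosteric activator of phosphofructokinase, and are both known HIF targets. Pfkfb4 had the most negative difference of the list. It ran from 7.68 to 8.16 with TUDCA (median 8.03) and from 8.18 to 8.51 with vehicle (median 8.34), so that every TUDCA array lay below every vehicle array. The fit gave −0.33 ± 0.09 log2 units (SE, 95% interval −0.52 to −0.14) and an adjusted p of 0.0733, which did not pass. Pfkfb3 differed by 0.03 ± 0.13 (adjusted p 0.956).

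In lower glycolysis, which yields ATP and pyruvate, 3 genes were measured and Pgk1 was higher with TUDCA. Pgk1, the phosphoglycerate kinase that makes the first ATP of this stretch, ran from 10.97 to 11.40 with TUDCA (median 11.31) and from 10.65 to 10.98 with vehicle (median 10.79). The groups touched at TUDCA 3 and vehicle 6. The difference was 0.42 ± 0.08 log2 units (SE), 1.34-fold, with an adjusted p of 0.0129. Pkm, the pyruvate kinase gene of most tissues outside liver, gave 0.36 ± 0.10 (adjusted p 0.0737) and ranged from 10.90 to 11.47 against 10.77 to 11.12. The mutase Pgam1 gave 0.25 ± 0.15 (adjusted p 0.489).

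All 3 genes of the list that act on the fate of pyruvate and lactate were higher with TUDCA, beside 1.00% of all probe sets. They were listed with their differences known, so this count is a description. Slc16a3, the monocarboxylate transporter that exports lactate from glycolytic cells, ran from 7.50 to 7.87 with TUDCA (median 7.67) and from 6.66 to 7.46 with vehicle (median 7.13). The difference was 0.53 ± 0.12 log2 units (SE), 1.45-fold, with an adjusted p of 0.0323. The groups did not overlap, and the vehicle arrays were the more spread, with vehicle 2 the lowest.

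Ldha, the lactate dehydrogenase subunit that favours lactate production, ran from 8.58 to 8.90 with TUDCA (median 8.74) and from 8.16 to 8.54 with vehicle (median 8.44). Its difference was 0.36 ± 0.08 log2 units (SE), 1.28-fold, with an adjusted p of 0.0334. Pdk1, a kinase that shuts off pyruvate dehydrogenase, ran from 7.07 to 7.46 (median 7.31) against 6.81 to 7.05 (median 6.96). It gave 0.33 ± 0.08 log2 units (SE), 1.26-fold, with an adjusted p of 0.0480, close to the threshold. Neither gene overlapped between the groups. Gys1, the glycogen synthase of muscle and most other tissues, differed by −0.07 ± 0.07 (adjusted p 0.744).

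**Figure D2:**
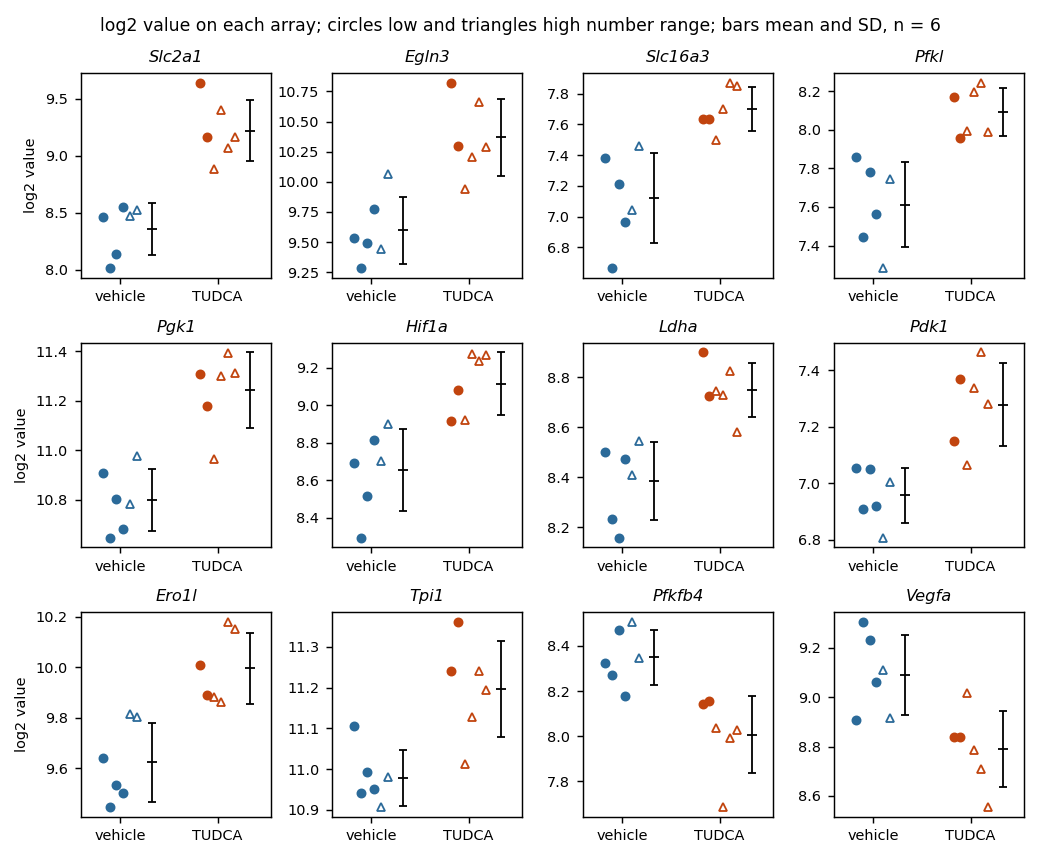
The log2 value of 12 genes on each array, with vehicle arrays in blue and TUDCA arrays in red, circles for the low and triangles for the high number range, and bars for the mean and SD of 6 arrays; each panel has its own axis, which does not start at 0. For Slc2a1 the TUDCA arrays start at 8.88 and the vehicle arrays end at 8.55, whereas Pfkfb4 and Vegfa lie lower on the TUDCA arrays, with overlap for Vegfa.

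The secreted factors that act on vessels pointed in opposite directions and neither passed. Adm, the vasodilator peptide adrenomedullin, ran from 6.30 to 7.25 with TUDCA (median 6.62) and from 5.53 to 6.43 with vehicle (median 6.00), with a difference of 0.55 ± 0.16 log2 units and an adjusted p of 0.0986. Vegfa, the endothelial growth factor, ran from 8.55 to 9.02 with TUDCA (median 8.81) and from 8.91 to 9.31 with vehicle (median 9.09), with a difference of −0.27 ± 0.09 and an adjusted p of 0.163. Both are textbook HIF targets. Adm was highest on TUDCA 3 and lowest on vehicle 1, and Vegfa was lowest on TUDCA 6.

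The genes of mitochondrial adaptation did not pass either. Bnip3, which marks mitochondria for autophagy, ran from 6.63 to 7.10 against 6.22 to 6.67 with vehicle and gave 0.34 ± 0.10 (adjusted p 0.0938). Higd1a, a small protein of the respiratory chain, gave 0.24 ± 0.11 (adjusted p 0.309). For both genes, all 6 TUDCA arrays lay above the vehicle mean of their own number range.

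The genes that restrain growth were mixed. Ddit4, an inhibitor of mTORC1 that stress induces, ran from 6.89 to 7.54 with TUDCA and from 6.97 to 7.13 with vehicle, and gave 0.34 ± 0.10 (adjusted p 0.0957). TUDCA 6 was the lowest of all 12 arrays for Ddit4, and the other TUDCA arrays lay above all vehicle arrays. Mxi1, an antagonist of MYC, gave −0.23 ± 0.11 (adjusted p 0.346) and Ndrg1, a stress-responsive differentiation gene, −0.15 ± 0.16 (adjusted p 0.737).

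Of the genes for collagen hydroxylation and protein folding, Ero1l was higher with TUDCA. It encodes the endoplasmic reticulum oxidase that drives disulfide bond formation, and is also listed among genes of the unfolded protein response. It ran from 9.86 to 10.18 with TUDCA (median 9.95) and from 9.44 to 9.82 with vehicle (median 9.59), without overlap. The difference was 0.31 ± 0.08 log2 units (SE), 1.24-fold, with an adjusted p of 0.0397. The prolyl 4-hydroxylase subunits P4ha1 and P4ha2, which modify collagen, gave 0.16 ± 0.11 (adjusted p 0.554) and 0.01 ± 0.08 (adjusted p 0.982). Kdm3a, a histone demethylase induced by hypoxia, ran from 8.27 to 8.50 against 8.06 to 8.27 without overlap, and gave 0.22 ± 0.06 with an adjusted p of 0.0823.

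Read over arrays, 8 of the 31 genes (25.8%) had every TUDCA array above every vehicle array, beside 0.800% of all probe sets, and 1 (Pfkfb4) had every TUDCA array below, beside 1.18%. The 8 were Slc2a1, Slc16a3, Pfkl, Hif1a, Ldha, Pdk1, Ero1l and Kdm3a, and all but Kdm3a passed the test. Since the same differences chose the list, these counts are a description too. For each of the 10 genes that passed, 6 of 6 TUDCA arrays lay above the vehicle mean of their own number range. Each array was also summarised by the median, over the 31 genes, of the value minus the mean of the gene. This median lay from 0.08 to 0.16 on the TUDCA arrays and from −0.21 to −0.02 on the vehicle arrays. Different arrays held the extremes, as TUDCA 5 was the highest array for 8 genes, vehicle 5 the lowest for 9 and vehicle 2 the lowest for 7. TUDCA 6 was the lowest array for 4 genes.

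**Figure D3:**
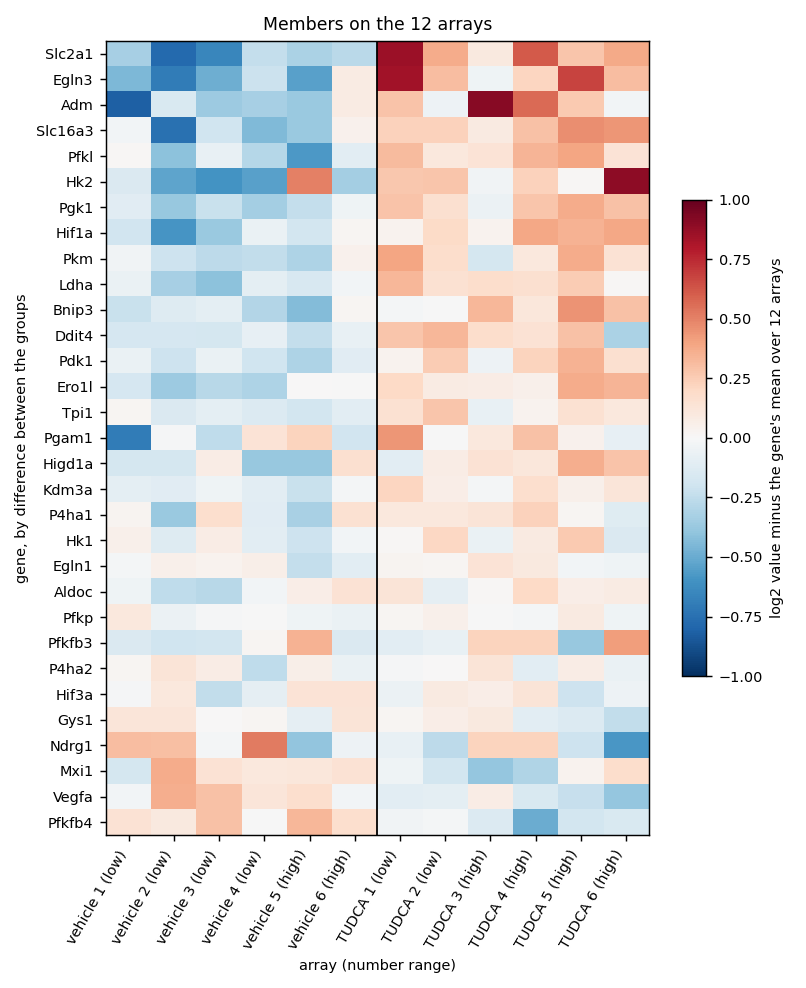
The log2 value of each gene minus its mean over the 12 arrays, with genes as rows ordered by their difference and arrays as columns, vehicle to the left and TUDCA to the right of the line, and the number range in brackets. The upper rows are mostly blue on the vehicle arrays and red on the TUDCA arrays, and the lowest rows the other way. Single arrays stand out, such as TUDCA 6 for Hk2 at 0.89 above the mean of the gene.

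The calls depended on the arrays included, and of the 10 only that of Slc2a1 held through each omission of 1 array. Without TUDCA 1, Slc2a1 was the 1 gene of the 10 still called (adjusted p 0.0166), and Egln3, Pfkl and Pgk1 had adjusted p of 0.0845, 0.0817 and 0.0681. Those 3 genes passed in each of the other 11 omissions. The number of genes called higher was 4 without TUDCA 2 or TUDCA 5, 5 without TUDCA 4, vehicle 2 or vehicle 3, and 6 without vehicle 4 or vehicle 5, against 10 on all arrays. It was 7 without TUDCA 6, vehicle 1 or vehicle 6, and 11 without TUDCA 3. These counts include genes that are not among the 10. They were Adm and Ddit4 without TUDCA 6, Pkm without TUDCA 3 or vehicle 6, and Hk2 without vehicle 5. The counts have no share of all probe sets beside them and are a description.

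Among the remaining calls, Ldha held when TUDCA 3, TUDCA 6, vehicle 1, vehicle 4 or vehicle 6 was left out, and reached an adjusted p of at most 0.159 otherwise. Slc16a3 held without TUDCA 3, vehicle 1, 2, 3 or 6 (at most 0.114 otherwise), and Ero1l without TUDCA 3, TUDCA 4 or vehicle 5 (at most 0.177). Hif1a held without TUDCA 3 or vehicle 4 (at most 0.153), Tpi1 without TUDCA 3 or vehicle 1 (at most 0.147), and Pdk1 without TUDCA 3 (at most 0.169). The differences themselves moved less. That of Pdk1 stayed between 0.28 and 0.38 over the omissions, that of Hif1a between 0.35 and 0.44, and that of Ldha between 0.30 and 0.41. Pfkfb4, not called on all arrays, passed as lower when vehicle 4 was left out.

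The number range gave further measures. The groups are unequal between the ranges, so the range term need not be independent of the treatment difference that chose the list. At equal treatment, the high minus low range term passed for 0 of the 31 genes (limma, smallest adjusted p 0.425, for Ero1l) and for 0 of all 23991 probe sets (0%). At an unadjusted p under 0.05 it was met by 1 gene of the list and by 2523 probe sets in all. The terms of the 31 genes ran from −0.21 log2 units for Ndrg1 to 0.29 for Adm.

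The TUDCA difference was also set against itself in the low and high ranges through an interaction term. It passed for 0 of the 31 genes (limma, smallest adjusted p 0.657) and for 0 of all probe sets (0%), and at an unadjusted p under 0.05 for 0 and 1843. The differences within the ranges average to the difference that chose the list, so their signs are a description: 27 of the 31 genes had the same sign in both ranges, beside 55.3% of all probe sets. Slc2a1 gave 1.11 log2 units in the low range and 0.63 in the high range, and Egln3 1.04 and 0.52. Of the 10 genes called on all arrays, 8 were larger in the low range, with Pfkl (0.40 and 0.59) and Pdk1 (0.28 and 0.38) the other way. Ndrg1 gave −0.45 in the low range and 0.14 in the high range, an interaction of 0.58 ± 0.29 log2 units (SE) with an adjusted p of 0.657. With the high range fitted alone, on 2 vehicle and 4 TUDCA arrays, 0 genes of the list were called (limma, 10 higher and 1 lower at an unadjusted p under 0.05), beside 0.0250% of all probe sets called higher and 0.0125% lower. With the low range alone 7 were called higher and 0 lower (2 lower at an unadjusted p under 0.05), beside 0.704% and 1.38% of all probe sets. Of the 10 genes called on all arrays, only Slc2a1, Egln3, Pgk1 and Ero1l were among these 7. The rest of the 7 were Hk2, Pkm and Ddit4, which were not called on all arrays.

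**Figure D4:**
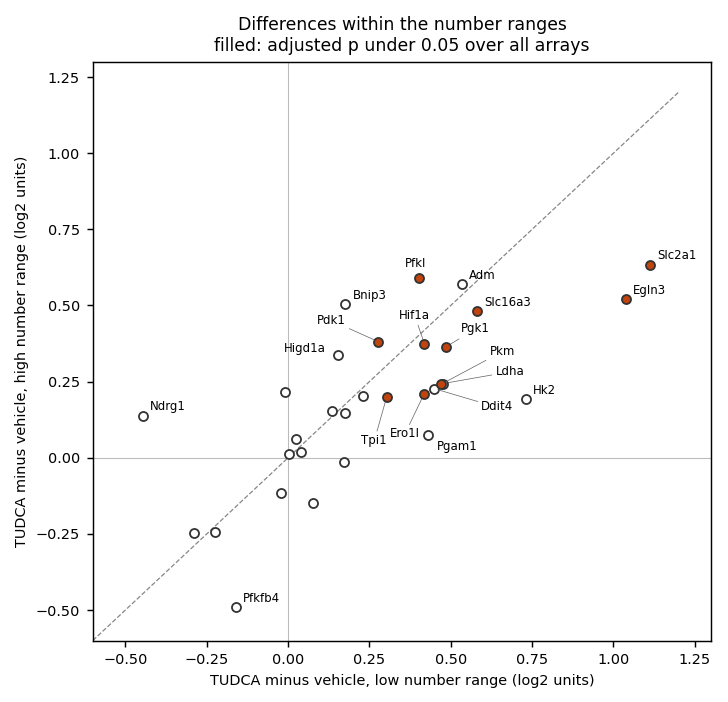
The TUDCA minus vehicle difference of each gene in log2 units in the low number range (x axis, 2 TUDCA and 4 vehicle arrays) and in the high number range (y axis, 4 TUDCA and 2 vehicle arrays), with filled points for an adjusted p under 0.05 over all arrays, thin lines joining crowded labels to their points and a dashed line of equal difference. The 10 filled points lie in the upper right, 8 of them below the dashed line, and Ndrg1 lies apart at −0.45 and 0.14.

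Other genes of the HIF pathway were read from a list of 40 that holds none of the 36, of which 36 were measured, 4 were higher and 1 lower, beside 1.00% and 1.52% of all probe sets. The median of this list was 0.03 log2 units. This list and the pathway lists below were also chosen with earlier results of these data known, so their counts are a description. Fam162a, a mitochondrial hypoxia-inducible gene, ran from 8.94 to 9.53 with TUDCA and from 8.18 to 8.90 with vehicle, without overlap, and gave 0.69 ± 0.12 (SE, 1.62-fold, adjusted p 0.00657). Its adjusted p was at most 0.0423 when any 1 array was left out. Bhlhe40, a hypoxia-induced transcriptional repressor, gave 0.54 ± 0.11 (adjusted p 0.0148), and its call ended without TUDCA 1 or TUDCA 2 (at most 0.0755). Stc1, the secreted glycoprotein stanniocalcin, gave 0.67 ± 0.15 (adjusted p 0.0321), and Mif, a cytokine, 0.43 ± 0.10 (adjusted p 0.0329). Mif, Arnt, Vhl, Hif1an and Car9 were named after their values were seen. The call of Stc1 ended on omission of any 1 of 6 arrays (at most 0.151) and that of Mif on omission of any 1 of 7 (at most 0.156), TUDCA 1 and TUDCA 2 among both.

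Cited2, which competes with HIF for its coactivators, fell by 0.42 on the log2 scale (SE 0.09, adjusted p 0.0269). It ran from 8.90 to 9.65 with TUDCA and from 9.70 to 10.04 with vehicle, without overlap, and the call ended on omission of any 1 of 6 arrays (at most 0.105). The core partners and regulators of HIF did not pass. The second alpha subunit Epas1 gave −0.18 ± 0.09 (adjusted p 0.403), Arnt −0.07 (0.659), the degradation factor Vhl −0.06 (0.822), the hydroxylase Egln2 −0.03 (0.896) and the inhibitor Hif1an −0.08 (0.702). Car9, a carbonic anhydrase that is a classical hypoxia marker, gave 0.36 ± 0.13 (adjusted p 0.193).

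Of 25 other genes of glycolysis and of glucose and lactate transport, 21 were measured, 1 was higher and none lower, and their median was 0.03. At an unadjusted p under 0.05 (limma), 3 were positive and 3 negative. Slc16a1, the widely expressed lactate transporter of the same family as Slc16a3, ran from 9.76 to 9.98 with TUDCA and from 9.42 to 9.66 with vehicle. It gave 0.35 ± 0.07 (SE, 1.27-fold, adjusted p 0.0132), a call that ended without TUDCA 2 (0.0667). The other paralogs named here did not pass. The glucose transporters Slc2a2, Slc2a3 and Slc2a5 gave 0.08 (adjusted p 0.688), −0.28 (0.287) and −0.37 (0.382), Pfkm gave 0.05 (0.920) and Ldhb 0.03 (0.938). The regulator Pfkfb2 gave 0.06 (0.739), the hexokinase Hk3 −0.25 (0.225) and the enolase Eno3 0.30 (0.342). Differences between paralogs were not tested.

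Gluconeogenesis, the synthesis of glucose from smaller molecules, shares most of its reversible steps with glycolysis. Of its 8 measured genes 1 was lower and none higher, with a median of −0.05. G6pc, the phosphatase that frees glucose from glucose phosphate, ran from 5.27 to 7.64 with TUDCA (median 6.45) and from 7.46 to 8.97 with vehicle (median 8.54). It fell by 2.20 on the log2 scale (SE 0.36, adjusted p 0.00497), 4.61-fold lower, and its adjusted p was at most 0.0312 without any 1 array. The G6pc difference was −3.28 in the low range and −1.13 in the high range (limma, adjusted p 0.367 with the high range alone), and the interaction did not pass. Pck1, which makes phosphoenolpyruvate, gave −1.87 ± 0.49 (adjusted p 0.0630). It passed without vehicle 5 (−2.68, adjusted p 0.000484) or TUDCA 3 (−2.03, 0.0406), and was −3.37 in the low and −0.37 in the high range (interaction adjusted p 0.436). Among genes of pyruvate dehydrogenase and of pyruvate entry into mitochondria, 0 of 10 passed (limma, 4 positive and 2 negative at an unadjusted p under 0.05). The paralogs of Pdk1 gave −0.44 ± 0.12 for Pdk2 (adjusted p 0.0631, and 0.0428 and 0.0477 without TUDCA 2 and TUDCA 3), 0.03 for Pdk3 and −0.55 for Pdk4 (0.415).

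In the pentose phosphate list 0 of 6 measured genes passed (1 positive at an unadjusted p under 0.05), with a median of 0.11. Of 11 genes of glycogen metabolism 1 was higher and none lower, with a median of 0.01. It was Pgm2, a phosphoglucomutase, at 0.33 ± 0.07 (adjusted p 0.0248), whose call ended without TUDCA 1, TUDCA 2 or vehicle 5 (at most 0.105). Of 11 genes for MYC and mTORC1, inputs that also drive glycolytic genes, none passed (1 negative at an unadjusted p under 0.05), with a median of 0.10.

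Markers of some cell types moved between the same groups, where 1.00% of all probe sets were higher and 1.52% lower. The marker lists were chosen with earlier results of these data known, so their counts are a description. Of 14 measured T and NK cell markers 7 were lower with TUDCA (median −0.66), with mean log2 levels from 5.89 to 7.30 on the TUDCA arrays and from 7.09 to 7.83 on the vehicle arrays. Of 12 goblet cell markers 4 were higher (Spink4, Spdef, Bcas1 and Agr2; median 0.28, levels from 10.31 to 10.71 against 9.86 to 10.41). Of 20 markers of absorptive enterocytes 5 were lower (among them Maf, Cdhr5, Apob and Cdhr2; median −0.15, levels from 10.68 to 10.95 against 10.81 to 11.11). The ranges of all 3 lists overlapped between the groups. The part of these cell types in the differences of the hypoxia and glycolysis genes was not tested.

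The other marker lists had at most 1 gene called. Of 12 neutrophil markers only Ly6g was called (higher, 1.26), with levels from 4.70 to 4.83 against 4.60 to 4.83, and of 12 skeletal muscle and fat markers only Acta1 (higher, 0.87), with levels from 5.61 to 6.33 against 5.55 to 6.25. None was called among 13 macrophage and dendritic cell markers (median −0.15), 13 endothelial markers (−0.10), 11 markers of stem and proliferating crypt cells (0.10), 7 Paneth cell markers (0.05), 12 smooth muscle markers (−0.12), 4 red blood cell markers (−0.09) and 12 reticular cell markers (0.00). Differences were positive for 11 of 11 crypt cell, 4 of 7 Paneth cell and 6 of 12 reticular cell markers, beside 53.3% of all probe sets. They were positive for 1 of 13 macrophage and dendritic cell markers and 2 of 13 endothelial markers. The smooth muscle list had 0 of 12 positive and the red blood cell list 1 of 4. Of the 72 genes in these 7 lists, 4 were positive and 8 negative at an unadjusted p under 0.05. Their part in the results was not tested either.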

How the data were processed

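RNA of 12 small intestine samples was measured on Affymetrix arrays, 1 per sample. The values the authors deposited are on the log2 scale. The processing notes of the submitters name oligo and RMA, with no version. RMA makes the array distributions alike, so a shift of all transcripts together would not be seen. There are no detection calls, so which dim probe sets were expressed is not known. Differences of dim probe sets are also compressed. Names came from the annotation of the platform. Of 23991 probe sets, 21557 named 1 gene, 787 several and 1647 none, and all entered the fits. Where a gene had several, that with the highest mean stood for it.

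The linear models were run in R 4.3.3 with limma 3.58.1 (lmFit, eBayes with a trend of variance on level), with treatment and number range as terms and an interaction as a further fit. Tests were two-sided, adjusted by Benjamini-Hochberg over all probe sets, with a threshold of 0.05, and the code was tested on simulated data. The number of arrays limits the precision. Counts of TUDCA differences at an unadjusted p under 0.05 have no share of all probe sets at that threshold beside them. The genes and all lists were chosen with earlier results of these data known. Every listed gene is accounted for. Array ranges are given for genes past the threshold or among the 6 largest differences either way. From other lists up to 4 genes with the smallest p and some paralogs are named. Arnt, Vhl, Hif1an, Car9, Mif and the tissue genes Anpep, Muc2, Cxcl12 and Lepr are named outside this rule. Promoter windows came from RefSeq (GRCm38.p6). Alternatives were a fit without the range, a replicate block, each range alone, other normalisations, variance models, filters and thresholds, and omission of each array.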

Additional observations from a re-analysis of the deposited data

Results flagged for a closer look

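In 4 of 62 groups of 6 arrays examined (31 genes in each treatment group), 1 array lay far from the other 5, judged by its gap to the nearest relative to the whole range, and chance gives such an array in about 1 of 20 groups. Hk2 was 9.20 on TUDCA 6, against 8.27 to 8.59 on the other TUDCA arrays. Pfkp was 11.29 on vehicle 1, against 11.11 to 11.17. Pfkfb4 was 7.68 on TUDCA 4, against 7.99 to 8.16, and all of these TUDCA values lay below the vehicle arrays. Ddit4 was 6.89 on TUDCA 6, against 7.35 to 7.54, and without that array its difference passed the test.

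For 2 genes, every TUDCA array lay on one side of the vehicle mean in one number range and on the other side in the other. Hif3a had a difference of −0.15 log2 units in the high range and 0.08 in the low range, and Egln1 0.22 and −0.01. The interaction itself did not pass for either gene (limma, adjusted p 0.780 for Hif3a and 0.670 for Egln1).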

How the results depend on the processing

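The median difference of the 31 genes lay between 0.20 and 0.28 log2 units in all alternatives. The count of genes higher with TUDCA, 10 in the reported fit, was 5 with a replicate block and the number range, 5 without a variance trend, 0 with the high range alone, and 1 to 11 when single arrays were left out. It was 7 to 15 in the others. These counts can include genes that are not among the 10. The block kept Slc2a1, Egln3, Pgk1, Hif1a and Ero1l. The count of lower genes, 0 in the reported fit, was 1 without the number range, 2 with a replicate block without the range, 1 with dim probe sets left out, 1 with array weights, 1 at an adjusted p of 0.1, and 0 to 1 over omitted arrays. Differences changed sign only for genes that did not pass. With the block and the range these were Pfkfb3 (−0.00067) and P4ha2 (−0.035), in the low range alone Hif3a (0.076) and Egln1 (−0.011), and in the high range alone Aldoc (−0.014) and Ndrg1 (0.14). Over omitted arrays, P4ha2 ran from −0.030 to 0.030 and Pfkfb3 from −0.060 to 0.12. Of the 8 genes called in the other pathway lists, none was called in the high range alone. The block with the range ended the calls of Bhlhe40 (adjusted p 0.0840), Stc1 (0.194), Slc16a1 (0.116) and Pgm2 (0.0907), the low range alone those of Bhlhe40 (0.0993), Slc16a1 (0.0986) and Pgm2 (0.0754), and Mif was lost without the number range (0.111) or the variance trend (0.0523). The causes were not tested. Same-numbered arrays did not all deviate together (correlations −0.06 to 0.26), so the replicate numbers were taken as labels. With the block and the range, 85 probe sets in all were higher and 190 lower, against 241 and 364.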
